A study of Mus musculus with 8 samples.

Results

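The genes described here are the small nucleolar RNA genes (snoRNA genes) of 8 mouse tumors. They were chosen by symbol, as all genes whose mm10 symbol begins with Snora, Snord or Scarna, which gave 150 of the 49671 genes in the count table. By symbol, 42 belong to the H/ACA class (Snora), 99 to the C/D class (Snord) and 9 to the Cajal body class (Scarna). The choice used no measured value of a single gene, but it was made with results for some snoRNA genes of these tumors known, so their levels are given as a description. The tumors formed in mice of the genotype HprtCre; Ewsr1-loxP; Atf1-loxP, in which Cre is expressed from the Hprt locus and loxP sites in Ewsr1 and Atf1 allow the loci to be joined. All 8 tumors share that genotype, were snap frozen when the primary tumor caused morbidity and had received no drug, and no control tissue is among the samples. Total RNA was sequenced after depletion of ribosomal RNA. The tumors are titled 1, 2L, 2R, 3, 4a, 4b, 5 and 6, and the labels explain neither the numbers and suffixes nor which cells recombined.

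A snoRNA is a short nuclear RNA that pairs with another RNA and brings a modifying enzyme to it. C/D snoRNAs carry the C and D boxes, bind the methyltransferase fibrillarin and guide methylation of the ribose, mostly in ribosomal RNA. H/ACA snoRNAs end a few bases after an ACA triplet, bind the pseudouridine synthase dyskerin and guide conversion of uridine to pseudouridine. Small Cajal body RNAs have either kind of box, or both, and act on the small nuclear RNAs of the spliceosome in the Cajal body. Most mammalian snoRNAs are cut out of the introns of host genes, and many hosts encode ribosomal or translation proteins. In the annotation 76 of the 150 genes lay in an intron of a host on the same strand, 63 touched a host exon and 11 lay outside any host. Hosts were sought among the genes of the count table, so a host missing from it would not be found. The hosts numbered 88, of which 68 code for protein, and 23 ribosomal protein genes hosted 32 of the snoRNA genes.

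The sequences of 6 genes are shown. Snord17 and Snora73b held 82.9% and 79.9% of the counts of their classes, Scarna13 23.0%, Snora23 7.96% and Snord15a 6.70%. Snora73a is the near copy of Snora73b. Snora73a and Snora23 were added after their values were seen, and Scarna2, the Cajal body gene with most counts, is too long to be shown here. They are RNA genes written as DNA, 5′ to 3′, from the GENCODE M21 transcripts of mm10. Snord17 lies at chr2:144265979-144266216 on the minus strand in an intron of Snx5, and Snord15a at chr7:99482785-99482932 on the minus strand in an intron of Rps3. In these 2 C/D genes the capitals mark the C box TGATGA and the D box CTGA.
Snord17: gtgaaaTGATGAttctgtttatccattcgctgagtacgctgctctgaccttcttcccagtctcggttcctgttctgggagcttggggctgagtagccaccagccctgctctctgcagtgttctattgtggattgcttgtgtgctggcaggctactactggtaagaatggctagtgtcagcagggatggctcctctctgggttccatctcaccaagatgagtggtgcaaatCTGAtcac
Snord15a: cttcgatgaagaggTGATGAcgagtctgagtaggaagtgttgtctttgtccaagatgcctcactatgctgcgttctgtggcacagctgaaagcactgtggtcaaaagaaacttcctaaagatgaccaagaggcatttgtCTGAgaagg
Snora73b lies at chr4:132352322-132352526 on the minus strand in an intron shared by Rcc1 and Snhg3, and Snora73a at chr4:132352775-132352979 on the same strand. Snora23 lies at chr7:110046364-110046547 on the plus strand in an intron of Ipo7, and Scarna13 at chr12:105031075-105031349 on the minus strand outside any host. In these 4 genes the capitals mark the ACA box near the 3′ end.
Snora73b: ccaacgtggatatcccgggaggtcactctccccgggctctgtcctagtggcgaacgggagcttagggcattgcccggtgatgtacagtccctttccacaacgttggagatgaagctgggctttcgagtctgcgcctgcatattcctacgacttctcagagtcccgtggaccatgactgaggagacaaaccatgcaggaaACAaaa
Snora73a: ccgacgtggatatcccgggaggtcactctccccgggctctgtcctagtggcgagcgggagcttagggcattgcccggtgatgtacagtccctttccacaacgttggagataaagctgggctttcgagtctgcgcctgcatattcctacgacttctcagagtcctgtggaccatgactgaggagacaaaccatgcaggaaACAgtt
Snora23: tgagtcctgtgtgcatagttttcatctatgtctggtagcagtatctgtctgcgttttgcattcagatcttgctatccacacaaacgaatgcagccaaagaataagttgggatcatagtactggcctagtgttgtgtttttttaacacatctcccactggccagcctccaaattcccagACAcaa
Scarna13: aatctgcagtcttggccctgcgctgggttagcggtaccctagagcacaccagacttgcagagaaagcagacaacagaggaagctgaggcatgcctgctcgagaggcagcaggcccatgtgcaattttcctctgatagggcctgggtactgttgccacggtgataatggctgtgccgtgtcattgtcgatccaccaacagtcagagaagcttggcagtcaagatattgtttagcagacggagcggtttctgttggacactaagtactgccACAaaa
Snora73a and Snora73b differed by 7 edits over 205 nt, an identity of 96.6%.

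The boxes separated the 2 large classes. ACA followed by 2 to 4 final bases was found in 40 of the 42 H/ACA genes (95.2%) and in 2 of the 99 C/D genes, Snord83b and Snord100. A C box TGATGA in the first 25 nt together with a D box CTGA in the last 20 nt was found in 68 C/D genes (68.7%) and in 0 H/ACA genes. The RNA strand alone was searched, with the C and D boxes in separate windows. Of the 9 Cajal body genes, 4 had the C and D boxes (Scarna6, Scarna9, Scarna10 and Scarna17) and 4 others had the ACA box (Scarna3a, Scarna3b, Scarna8 and Scarna13). Among the 1409 other genes of snoRNA or scaRNA biotype in the table, which carry other symbols, 17.2% had both C and D boxes and 45.7% the ACA box.

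The libraries held 4817902 counts (tumor 3) to 19682149 counts (2L). The engineered loci were transcribed in every tumor, Ewsr1 at 88.8 ± 25.1 and Atf1 at 26.98 ± 4.25 CPM (counts per 1000000; SD, n = 8). CPM values here are scaled by the trimmed mean of M-values (TMM), with factors between 0.394 in tumor 3 and 1.36 in 2L. Tumor 3 stands apart by that factor and by the fewest counts, so some values that rest on it are also given without it. The mitochondrial ribosomal RNAs took 0.877% of the counts in 2L, 0.982% in 6 and 2.90% in 4a, and 8.27% to 24.7% in the other 5 tumors. Ttn, a muscle gene, reached 12170 CPM in 2L and 5145 CPM in 3, while the other 6 had at most 84.7 CPM.

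A count was found for 78 of the 150 snoRNA genes, and 72 had none in any tumor. By class, 22 of 42 H/ACA genes, 47 of 99 C/D genes and 9 of 9 Cajal body genes had a count. The number seen in 1 tumor ran from 42 in tumor 3 to 71 in 4a, and 29 genes had a count in all 8. A mean of 1 CPM was reached by 18 genes, 7 H/ACA, 6 C/D and 5 Cajal body, and 9 genes, 3 of each class, passed the filter on low counts used for testing. A total of 0 over all 8 libraries leaves room for a level of 3 counts, or 0.0295 CPM over the 101667660 counts of the table by counting error alone.

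Counts lay mostly in the longest genes. The 10 genes of 150 nt or more held 88.1% of all snoRNA counts. The 51 genes of at least 100 and under 150 nt held 8.29%, the 45 of 80 to 99 nt held 0.775% and the 44 of 60 to 79 nt held 2.79%. Genes without a count numbered 18 of 44 at 60 to 79 nt and 31 of 45 at 80 to 99 nt. They numbered 21 of 51 at 100 nt to under 150 nt and 2 of 10 at 150 nt or more. They were thus most frequent at 80 to 99 nt, where 17 of the 31 were the near-identical genes with a Snord116 symbol. Among the other snoRNA-biotype genes, the 55 of 150 nt or more held 78.55% of the counts, but 48.2% without the single gene Gm22009. C/D genes were the shortest, with a median of 84 nt, against 132.5 nt for H/ACA and 140 nt for Cajal body genes. The part of length in these counts was not tested.

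Genes without a count lay mostly inside exons of other genes. Of the 56 snoRNA genes that lie wholly inside an exon of another gene on the same strand, 51 had no count. The 5 with counts, Snora28, Snora33, Snord19, Snord69 and Snord100, held 279 counts together. Of 17 genes covered in part, 14 had counts. Of the 77 with no such cover, 59 had counts and 18 had none. The 18 were Snora35 and all 17 genes with a Snord116 symbol, 14 of which are identical in sequence to another gene. How reads in overlapping genes or repeated sequences were assigned is not given in the sources used here, so a zero in such a gene does not show that the RNA is absent.

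**Figure D1:**
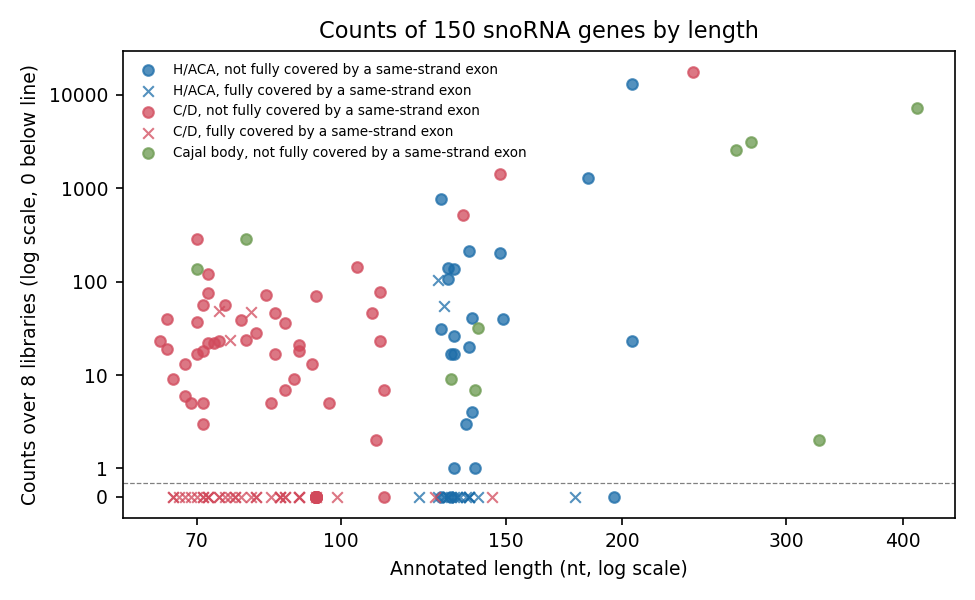
Total counts over the 8 libraries (y axis, log scale, zeros below the dashed line) against annotated length (x axis, nt, log scale) for each of the 150 snoRNA genes, coloured by class. Crosses mark the 56 genes wholly inside a same-strand exon of another gene, 51 of which sit at 0, and the highest points are Snord17 at 238 nt, Snora73b at 205 nt and Scarna2 at 414 nt.

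Those of the 150 genes that belong to the imprinted Prader-Willi region gave no counts. Snord116 is made in many copies from the paternal allele in brain and is linked in humans to Prader-Willi syndrome. The 17 genes with its symbol had 0 counts, and so did Snord64 and Snord107 of the same region, which lie inside host exons. Of the 17, 14 each share their sequence with 29 other genes, so some copies carry other symbols and are outside the 150. The long host transcript of that region, Snhg14, had 188 counts over the 8 tumors. No gene of the Snord115, Snord113 or Snord114 families was among the 150. Rian and Meg3, the long RNAs of the imprinted region on mouse chromosome 12 that hosts C/D genes, stood at 276.7 ± 164.8 and 186.0 ± 159.1 CPM (SD, n = 8). Snora35 lies in Htr2c, a serotonin receptor gene, and both Snora35 and Htr2c had 0 counts.

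Together the 150 genes took 50862 counts, a mean share of 0.0559% ± 0.0209 of a library (SD, n = 8). The share was 0.0811% in tumor 1, 0.0652% in 2R, 0.0317% in 2L, 0.0558% in 3, 0.0834% in 4b, 0.0380% in 4a, 0.0616% in 5 and 0.0304% in 6. The shares of 2L, 4a and 6 were the 3 lowest, and counting error is small beside these gaps, with 95% Wilson intervals of 0.0297% to 0.0312% in tumor 6 and 0.0818% to 0.0851% in 4b. The same 3 tumors had the lowest shares of mitochondrial ribosomal RNA and the largest libraries, and the part of either in the snoRNA share was not tested. Summed TMM-scaled CPM kept 2L, 4a and 6 lowest, at 244.8, 290.2 and 239.8, and put tumor 3 highest at 1433. Without a TMM factor tumor 3 stood at 564.2 and 4b was highest at 847.6. Over the 7 tumors other than 3 the sum averaged 524.1 ± 254.2 CPM, against 637.7 ± 398.3 CPM over all 8. In bulk tumors, fewer cells that make a snoRNA and less of it per cell cannot be told apart.

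**Figure D2:**
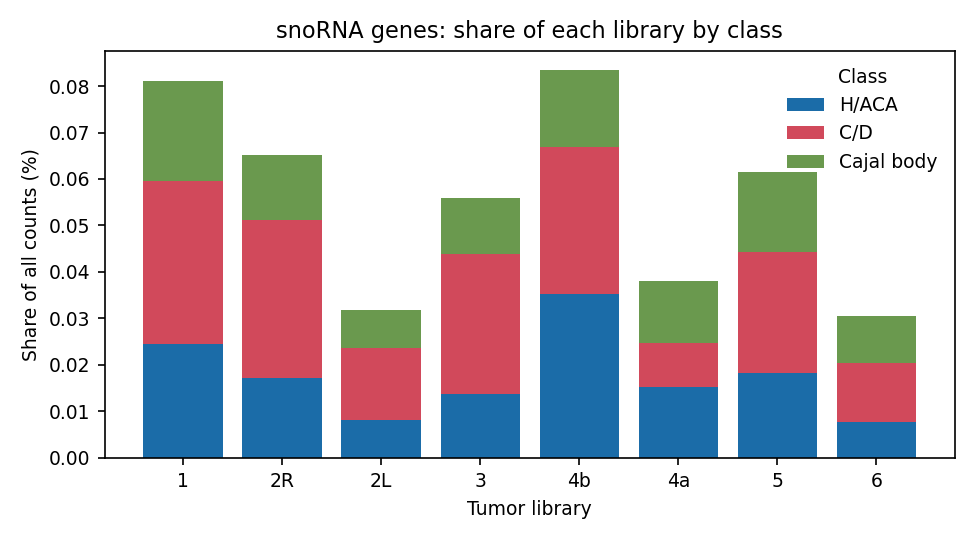
Share of all counts of each library (y axis, percent) taken by the snoRNA genes, 1 stacked bar for each of the 8 tumors, divided into the H/ACA, C/D and Cajal body classes. Bars of 2L, 4a and 6 end at or below 0.0380%, and those of the other 5 tumors at 0.0558% to 0.0834%.

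A few genes made up each class. C/D genes held 41.67% of all snoRNA counts, H/ACA genes 31.86% and Cajal body genes 26.46%. Snord17 alone held 34.6% of the total, and with Snora73b and Scarna2 the sum was 74.4%. The 8 genes of most counts held 92.4%.

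Among C/D genes, Snord17 was the most abundant in every tumor and made up 82.2 ± 5.69% of the class (SD, n = 8). Its counts were 3081 in tumor 1, 2281 in 2R, 2737 in 2L, 1122 in 3, 2829 in 4b, 1295 in 4a, 2009 in 5 and 2222 in 6. Its level averaged 237.9 ± 176.7 CPM, lowest in 4a at 53.6, with a median of 212.7 and highest in 3 at 597.6. Without tumor 3 it averaged 186.5 ± 108.5 CPM. Its host Snx5, which encodes a sorting nexin of endosomes, averaged 120.6 ± 39.4 CPM. Per kilobase of length Snord17 stood at 999.4 CPM, against 28.9 CPM for Snx5.

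Snord15a had the next highest level of the C/D class and the widest spread of the 9 filtered genes. It had 297 counts in tumor 1, 209 in 2R, 109 in 2L, 228 in 3, 269 in 4b, 73 in 4a, 190 in 5 and 44 in 6. The lowest, median and highest levels were 1.79 CPM in 6, 20.17 CPM and 121.4 CPM in 3, and the SD on the log2 scale was 2.01 over 8 tumors and 1.67 without tumor 3. Rps3, its host, encodes a protein of the small ribosomal subunit and was steadier, at 468.3 ± 108.4 CPM with a log2 SD of 0.34. Snord118, known as U8 and needed for processing of the large-subunit ribosomal RNAs, ranged between 0.325 CPM in 6 and 22.9 CPM in 3, with a median of 5.69. Without tumor 3 it reached at most 13.4 CPM. It lies outside any host found here, as does Snord13, known as U13, which averaged 1.77 CPM. Snord104 averaged 2.998 ± 1.16 CPM, with a log2 SD of 0.60. Snord49b, in the noncoding host 2410006H16Rik, averaged 1.35 CPM and had between 1 count in tumor 3 and 45 counts in 4b.

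Among H/ACA genes, Snora73b had most counts in every tumor and made up 76.1 ± 13.7% of the class. Snora73 is the U17 snoRNA, which takes part in cutting the ribosomal RNA precursor rather than in guiding pseudouridine. Snora73b had 2107 counts in tumor 1, 1036 in 2R, 1192 in 2L, 305 in 3, 3255 in 4b, 2504 in 4a, 1265 in 5 and 1291 in 6. The lowest, median and highest levels were 46.7 CPM in 2L, 147.3 CPM and 246.0 CPM in 4b. Its share of the class was lowest in tumor 3, at 45.9%, and highest in 4a, at 89.6%. Snora73a, which lies just upstream, had 23 counts over all 8 tumors, against 12955 for Snora73b. Exons of Snhg3 on the same strand cover 77.6% of Snora73a and none of Snora73b, and with copies this alike the split of reads between them is uncertain. An annotated gene on the opposite strand, Gm17300, overlaps both and had 1 count in total. Rcc1, which encodes the nucleotide exchange factor of Ran, averaged 12.5 ± 8.02 CPM, and Snhg3 3.20 ± 1.71 CPM. Of these 2 possible hosts, Rcc1 was used as the host because it had more counts, 1129 against 413.

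Snora78, in the noncoding host Snhg9, averaged 18.7 ± 33.8 CPM, with tumor 3 at 101.7 CPM. Without that tumor it averaged 6.87 ± 4.73 CPM, between 1.67 in 6 and 13.2 in 2R. Snhg9 itself had 28 counts in all. Snora23 lies in Ipo7, which encodes a nuclear import receptor. It had 160 counts in tumor 1, 131 in 2R, 188 in 2L, 89 in 3, 342 in 4b, 74 in 4a, 254 in 5 and 52 in 6. Snora23 differed widely between tumors, with a log2 SD of 1.56 (1.46 without tumor 3), while Ipo7 stood between 92.2 and 144.6 CPM with a log2 SD of 0.22. Snora57, Snora21 and Snora17 averaged 3.22, 3.18 and 2.54 CPM. Without tumor 3, where each was highest, Snora57 averaged 2.24 and Snora21 2.41 CPM. Snora17 is one of the genes that rest on tumor 3, since its mean without that tumor was 1.22 CPM.

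Among Cajal body genes, Scarna2 had most counts in 6 of the 8 tumors and was level with Scarna6 in 4b. In humans Scarna2 guides methylation of the U2 small nuclear RNA. Its counts were 1236 in tumor 1, 724 in 2R, 1048 in 2L, 154 in 3, 611 in 4b, 1250 in 4a, 948 in 5 and 1341 in 6. It had a log2 SD of 0.59, the lowest of the 9 filtered genes over 8 tumors but above the median of 0.51 over all genes, and levels between 41.1 CPM in 2L and 112.7 CPM in 2R (median 68.3). In tumor 3 Scarna13 led the class with 234 counts, and in 4b Scarna6 had 614 counts and Scarna2 611, a difference within counting error. Scarna13, known in humans as U93, averaged 41.8 ± 36.7 CPM, and 29.9 ± 16.2 CPM without tumor 3. Scarna6, in an intron of the autophagy gene Atg16l1, averaged 28.4 ± 15.2 CPM, lowest in 6 at 8.21 and highest in 3 at 50.6. Scarna17 had 86 counts in tumor 3, 90 in 5, 70 in 4b and 3 to 16 in the other 5, so that its mean of 7.97 CPM became 2.57 CPM without tumor 3.

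**Figure D3:**
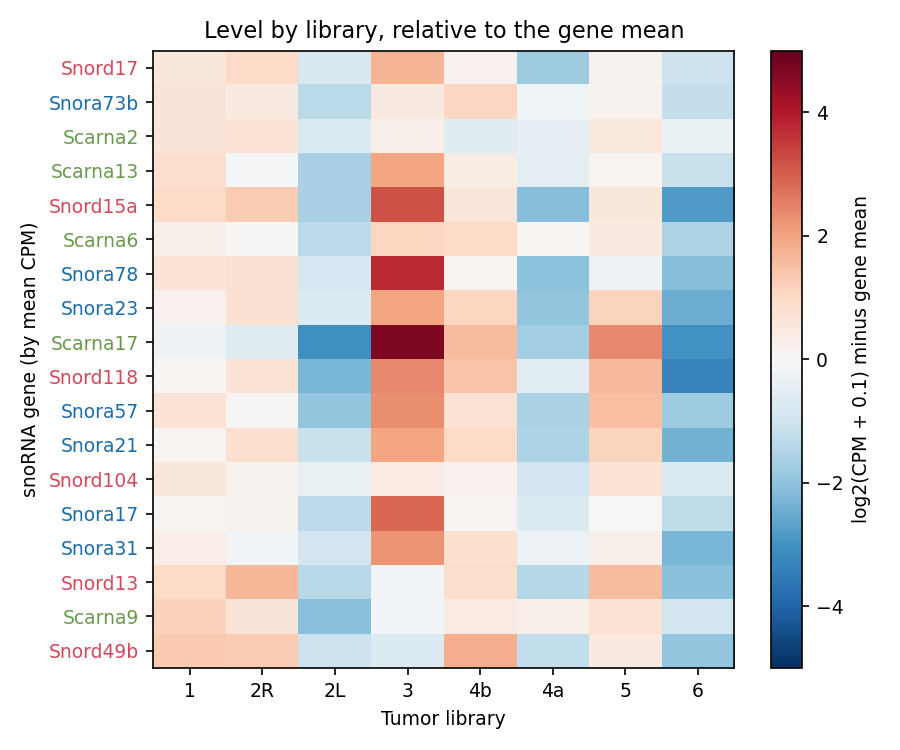
Level of the 18 snoRNA genes with a mean of at least 1 CPM (rows, by mean CPM) in the 8 tumors (columns), as log2(CPM + 0.1) minus the mean of the gene over all tumors. Row labels are blue for H/ACA, red for C/D and green for Cajal body genes; the columns of 2L and 6 are mostly blue, and tumor 3 holds the highest value of 12 of the 18 genes.

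Among the 18 genes at a mean of 1 CPM, tumor 3 was highest for 12 and tumors 6 and 2L were lowest for 9 and 7. That count for tumor 3 depended on the scaling, since by share of all counts it was highest for 4 of 18 and 4b was highest for 7. Tumors 6 and 2L remained lowest by share for 9 and 6 genes. The median log2 SD of the 9 filtered snoRNA genes was 1.13, against 0.51 over all 11505 genes that passed the filter (quartiles 0.35 and 0.77). Without tumor 3 these medians were 0.92 and 0.39. Over all tumors the 6 filtered genes listed as other small structured RNAs, such as Rmrp and Rpph1, had a median of 0.98. It was 0.86 for filtered long noncoding host RNAs and 0.37 to 0.51 for the lists of proteins that snoRNAs work with. A spread above that of all genes was thus not limited to snoRNA genes.

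The balance of the classes within a library does not depend on scaling. The log2 ratio of H/ACA to C/D counts averaged -0.50 ± 0.62 (SD, n = 8) and was negative in all tumors but 4b and 4a, which share a title number. The SD is the spread between tumors, and the mean was not tested against equal counts. The ratio was -0.52 in tumor 1, -0.98 in 2R, -0.93 in 2L, -1.13 in 3, 0.15 in 4b, 0.67 in 4a, -0.52 in 5 and -0.74 in 6. H/ACA counts exceeded C/D counts in 4b and 4a alone, by 1.11-fold and 1.60-fold. In 4b the counts were 3963 for H/ACA and 3560 for C/D genes, and in 4a 2794 for H/ACA and 1750 for C/D genes.

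The pattern was that of the leading genes. The log2 ratio of Snora73b to Snord17 counts averaged -0.63 ± 0.88 and was positive in 4b (0.20) and 4a (0.95) only. With both genes left out, the class ratio averaged -0.17 ± 0.33 and other tumors lay above 0, namely 2L at 0.37 and 3 at 0.13, while 4b stood at -0.05 and 4a was lowest at -0.65. Cajal body over C/D counts gave -0.71 ± 0.59, positive in 4a alone, at 0.49. Per length, H/ACA over C/D gave -0.45 ± 0.49. Without tumor 4a the mean log2 ratio of H/ACA to C/D was -0.67. Counting the Cajal body genes with the H/ACA class turned its sign, to 0.41.

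**Figure D4:**
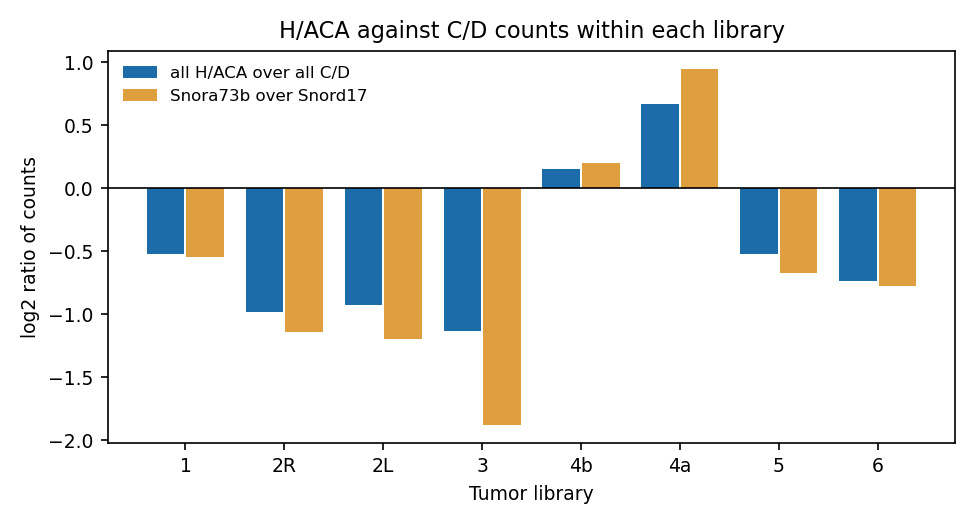
Log2 ratio of counts within each of the 8 tumors (y axis), for all H/ACA over all C/D genes (blue) and for Snora73b over Snord17 (orange). Both bars are above 0 in 4b and 4a and below 0 in the other 6 tumors, down to -1.88 for Snora73b over Snord17 in tumor 3.

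The one contrast the titles allow is among their 6 numbers, with 2R and 2L sharing a number and 4b and 4a another. The labels do not say that libraries came from separate animals, so p-values concern only these libraries. The error they are set against comes from the gaps between 2R and 2L and between 4b and 4a. By edgeR's quasi-likelihood F-test with Benjamini-Hochberg adjustment over all 11505 genes at 0.05, 0 of the 9 filtered snoRNA genes were called, against a background of 0.0% of all genes. The test rested on 2 residual degrees of freedom. At an unadjusted p under 0.05 there were 1 snoRNA gene, Snora78 (edgeR unadjusted p = 0.0257, adjusted p = 0.165), and 2813 genes in all. DESeq2's likelihood ratio test called 20.7% of all genes and 2 of the 9, Snora78 (adjusted p = 1.17e-07) and Scarna13 (adjusted p = 0.00276). The 2 genes were both highest in tumor 3, a number with 1 library. Leaving out 2R gave 4 edgeR calls among 9 (Scarna13, Scarna2, Scarna6 and Snora78), with 39.3% of all genes called. Leaving out 2L gave 3 (the same without Snora78), with 38.7% of all genes called. The cause was not tested.

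The tumors that share a title number differed widely in snoRNA. In 4b, snoRNA genes stood mostly above 4a, with 19 of 20 higher and 13 at least 2-fold higher. The median log2 ratio of 4b over 4a was 1.60, against 0.02 over all 14277 genes at the same minimum of 1 CPM. In that comparison 3.31% of all genes were at least 2-fold higher in 4b and 3.47% at least 2-fold lower, while 0 of the 20 snoRNA genes were 2-fold lower. Of the 20, 7 were below 1 CPM in 4a and reached the minimum through 4b alone, so they had to be higher there. Among the 13 at 1 CPM in each library, 12 were higher in 4b, 8 at least 2-fold, with a median of 1.17, and 2.54% of all 13665 such genes were at least 2-fold higher. Each side is 1 library, so there is no test. Some of these genes were already known to differ between 4b and 4a when the set was chosen, so the share is given as a description only.

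By class, the medians of 4b over 4a were 2.11 for 6 C/D genes, 1.25 for 9 H/ACA genes and 0.85 for 5 Cajal body genes. These medians include the genes below 1 CPM in 4a, so they do not rank the classes. At 1 CPM in each library, C/D genes ran from 1.17 to 2.7, H/ACA genes from 0.46 to 3.02 and Cajal body genes from -0.16 to 0.88. There the Cajal body values all lay below the C/D values, while the H/ACA values overlapped both. The largest log2 ratios were 3.19 for Scarna17 (70 counts in 4b, 11 in 4a), 3.02 for Snora23 (342 counts in 4b, 74 in 4a) and 2.92 for Snord49b (45 counts in 4b, 8 in 4a). Snord17 was at 213.8 CPM in 4b, against 53.6 CPM in 4a, a log2 ratio of 1.99. At the other end were Scarna2 at -0.16 (46.2 CPM in 4b, 51.8 CPM in 4a), Scarna9 at 0.16 and Snora28 at 0.46. Scarna17 and Snord49b are among the genes below 1 CPM in 4a. Scarna2 was the only one of the 20 that was lower in 4b. The 24 other snoRNA-biotype genes at this level had a median of 1.54, and 15 small nuclear RNA genes one of 0.78.

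Hosts did not follow their snoRNA genes in this pair. All 12 snoRNA genes with a host had a higher log2 ratio than the host, with a median excess of 2.18. That median was 1.94 over genes at 1 CPM in each library and 0.80 with the minimum mean lowered to 0.2 CPM. Of the 12, Snora21, Snord49b and Snora30 were below 1 CPM in 4a, so they entered through 4b alone. The excess of Snora78 rests on 2 counts of Snhg9 in 4b and 9 in 4a. The hosts had a median log2 ratio of -0.16 (range -1.10 to 0.93). Snord15a had 269 counts in 4b and 73 in 4a, while Rps3 had 4102 counts in 4b and 15995 in 4a. Snora23 had a log2 ratio of 3.02 and Ipo7 one of 0.00. Snora21, in the ribosomal protein gene Rpl23, gave 2.47, against -1.07 for the host. The smallest excess, 0.03, was that of Snora30 over Srcap, which encodes a chromatin remodeler.

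In the other pair, all 17 snoRNA genes at 1 CPM were higher in 2R than in 2L, and 16 were at least 2-fold higher. The median log2 ratio was 1.78, against 0.04 over all 15004 genes, of which 12.5% were at least 2-fold higher and 13.8% at least 2-fold lower in 2R. Of the 17, 8 were below 1 CPM in 2L and reached the minimum through 2R alone. All 9 at 1 CPM in each library were higher in 2R, 8 at least 2-fold, with a median of 1.52, and 9.59% of all 13594 such genes were at least 2-fold higher. Over the 17, C/D genes had a median of 2.22, H/ACA genes 1.73 and Cajal body genes 1.49. These medians include the genes below 1 CPM in 2L, so they do not rank the classes. At 1 CPM in each library, C/D genes ran from 0.50 to 2.89, H/ACA genes from 1.45 to 1.78 and Cajal body genes from 1.35 to 1.52. Snord13 (25 counts in 2R, 10 in 2L), Snord118 (44 counts in 2R, 20 in 2L) and Snord15a (209 counts in 2R, 109 in 2L) had the largest log2 ratios, at 2.93, 2.92 and 2.89. Snord13 and Snord118 are among the genes below 1 CPM in 2L. Snord104 had the smallest, 0.50, followed by Scarna6 at 1.35 and Snora17 at 1.43. All 10 genes with a host were above it, with a median excess of 1.28 and a host median of 0.47. Of these, Snora21, Snord49a, Snord49b and Scarna9 were below 1 CPM in 2L, so they entered through 2R alone. The excess of Snora78, 3.25, rests on 0 counts of Snhg9 in 2R and 7 in 2L. The remaining genes had an excess of 1.07 to 2.42.

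Scaling moved snoRNA genes and all genes alike. For 2R over 2L without a TMM factor the median of all genes moved by about the same amount as that of the snoRNA genes, to -0.66, and the snoRNA median was 1.07, with 16 of 17 higher and 10 at least 2-fold higher in 2R. For 4b over 4a the same change gave an all-gene median of -0.14 and a snoRNA median of 1.45, with 19 of 20 higher. Ttn was at 84.7 CPM in 2R, against 12170 CPM in 2L, and mitochondrial ribosomal RNA at 24.7% in 2R and 0.877% in 2L. In the pair 4b and 4a, Ttn was at 7.25 CPM in 4b, against 24.4 CPM in 4a, and mitochondrial ribosomal RNA at 8.27% in 4b, against 2.90% in 4a. The part of either in the snoRNA ratios was not tested.

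**Figure D5:**
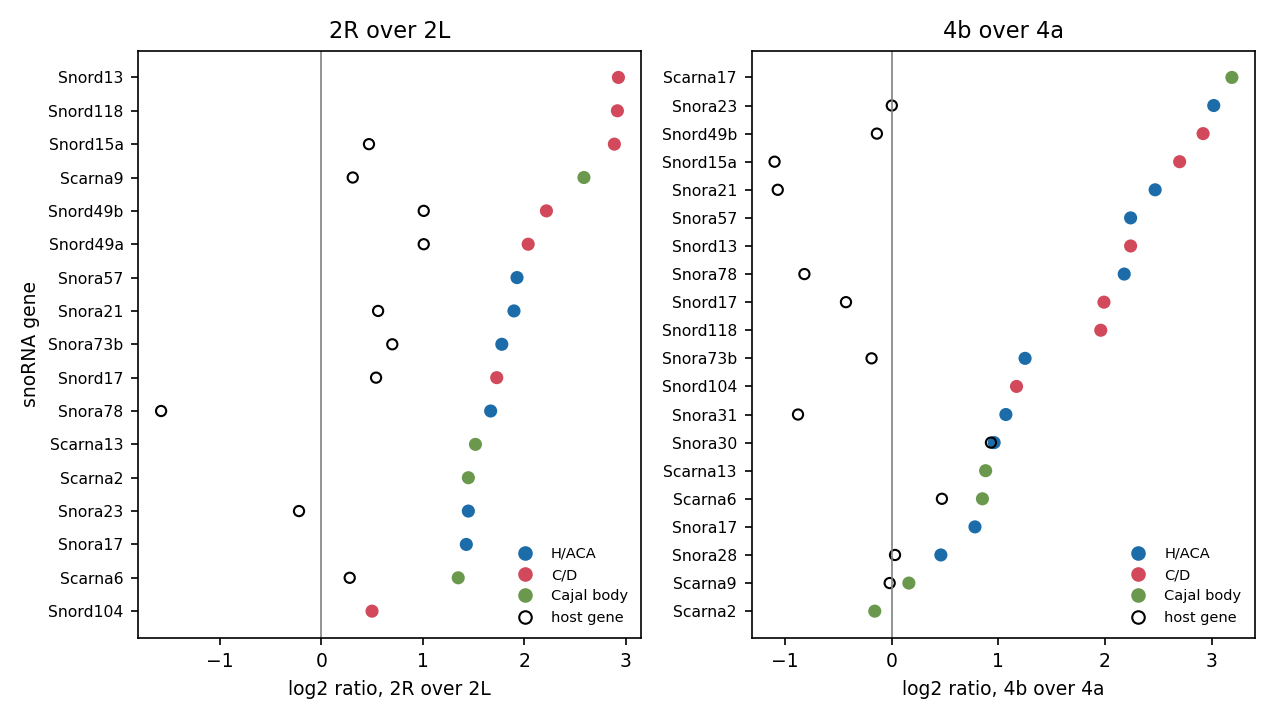
Log2 ratio of 2R over 2L (left, 17 genes) and of 4b over 4a (right, 20 genes) for snoRNA genes with a mean of at least 1 CPM in the pair, filled points coloured by class, with the host gene of each as an open circle where there is one. All filled points on the left and 19 on the right are above 0, and each that has a host lies to its right.

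The proteins that snoRNAs work with are given by lists of known components. The H/ACA list (Dkc1, Nop10, Nhp2, Gar1, Naf1, Shq1) passed the filter in 6 of 6 genes, and 0 were called among numbers by edgeR or DESeq2. Dkc1, which encodes dyskerin, averaged 20.1 ± 5.66 CPM, and Gar1 5.15 ± 3.93 CPM, with Gar1 highest in tumor 3 at 13.85. Of the 10 C/D genes, 0 were called by edgeR and 2 by DESeq2 (Nop56 and Ruvbl2), near the 20.7% of all genes that DESeq2 called. Both were highest in tumor 3, at 73.5 and 63.9 CPM. Fbl, which encodes fibrillarin, averaged 3.15 ± 2.02 CPM, and the C/D core gene Nop56 28.3 ± 19.6 CPM. Fbl too was highest in tumor 3, at 7.46 CPM. Of the 9 Cajal body and nucleolar genes, 0 were called by edgeR and 2 by DESeq2 (Nolc1 and Polr1a), again near that share. Nolc1 and Polr1a were highest in tumor 3, at 106.0 and 127.3 CPM. Coil, which encodes coilin, the scaffold of the Cajal body, averaged 6.76 ± 1.87 CPM.

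In the pairs the core protein genes went both ways. Gar1 had a log2 ratio of 0.76 for 4b over 4a and 1.60 for 2R over 2L, and Nhp2 had -0.40 and -0.69. For 4b over 4a the median log2 ratios were 0.05 for the H/ACA list, -0.12 for the C/D list and 0.19 for the Cajal body and nucleolar list. For 2R over 2L they were 0.17, 0.09 and 0.19. The table holds 17 of the long noncoding host RNAs, among them Gas5 at 81.5 ± 32.0 CPM. The 15 that passed the filter had medians of 0.31 for 4b over 4a and 0.75 for 2R over 2L. Of these 15, 0 were called by edgeR and 6 by DESeq2, beside 20.7% of all genes. The 7 other small structured RNAs include Rmrp and Rpph1 (the RNAs of RNase MRP and RNase P). The 6 that passed the filter, all but Terc, had medians of 0.67 for 4b over 4a and 1.86 for 2R over 2L. Of the 6 tested, 0 were called by edgeR and 1, Rny3, by DESeq2. Terc, the telomerase RNA, has an H/ACA domain and had 13.3 CPM in tumor 3 and at most 0.737 CPM in the other 7.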

How the data were processed

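The authors deposited 1 table of raw counts, whole numbers for 49671 Ensembl genes in 8 tumor libraries. The submitters' processing notes name build mm10 and the tools RSEM, featureCounts, STAR 2.7.5a and cutadapt. Which tool made the counts, its strand and overlap settings and the annotation are not given in the sources used here. Symbols, positions, exons and sequences come from GENCODE M21 on mm10, which matched 49412 identifiers (99.48%). No 2 columns were identical.

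edgeR 4.0.16 under R 4.3.3 was used with TMM scaling, a prior count of 2 for log2 CPM and filterByExpr for 1 group (0.920 CPM in every library, 11505 genes kept). The quasi-likelihood F-test compared the 6 title numbers over the whole table, and DESeq2 1.42.0 was an alternative. The host is the gene of the count table on the same strand that spans the member, and of several the protein-coding or long noncoding one with most counts.

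Named genes were the 6 H/ACA, 6 C/D and 4 Cajal body genes of highest mean CPM, up to 4 filtered genes of largest log2 SD in the H/ACA and C/D classes, the 3 highest and 3 lowest log2 ratios in each pair, the gene of most counts per library, the imprinted families, listed genes and hosts. Genes named outside it were chosen after their values were seen. Members and lists were chosen with earlier results of these data known. Values without tumor 3 were added after seeing the data. Alternatives were other scaling, filters, member sets and each library left out.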

Additional observations from a re-analysis of the deposited data

Results flagged for a closer look

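Dixon's ratio of the gap to the range was computed over the 8 tumors for the log2 CPM of 23 series of snoRNA values, and chance flags about 1 in 20 such groups. In Snora17, tumor 3 stood apart as the highest, with a ratio of 0.652, at 11.7 CPM against 0.549 to 1.71 CPM in the other 7 tumors. In Snora28, tumor 3 stood apart as the lowest, with a ratio of 0.544, at 0 counts against 4 to 27 counts in the other 7. A count of 0 in tumor 3 allows up to 1.60 CPM, above the level of Snora28 in each of the others. Tumor 3 has the smallest library and the lowest TMM factor, and their part in either value was not tested.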

How the results depend on the processing

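No paired analysis was possible because the labels give 1 group, and the suffixes do not pair groups. Of the snoRNA genes, edgeR called 0 among title numbers with DESeq2's size factors and with the filter of 10 counts in at least 2 libraries. DESeq2's likelihood ratio test called 2, edgeR without a scaling factor 3 (Snora23, Snora78, Snord15a) and edgeR without a filter 11 of 78 tested. In these settings 20.7%, 33.0% and 20.6% of all genes were called, so these counts are near or below the share of all genes. Leaving out single libraries gave 0 to 4 calls, above 0 only without 2R (4) or 2L (3), where 39.3% and 38.7% of all genes were called. The number passing the filter was 78 with no filter and 26 with the filter in at least 2 libraries, and 9 to 10 with 1 library left out.

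The mean share of counts became 0.0994% without the 20 most abundant genes in the denominator and 0.0845% of protein-coding counts. It was 0.0359% without Snord17 and 0.0385% over genes that overlap no exon, and stayed at 0.0520% to 0.0596% with 1 library left out. The log2 ratio of H/ACA to C/D reversed to 0.41 with Scarna genes added to H/ACA. It was -2.84 over genes that overlap no exon on either strand, a set without Snora73b because Gm17300 lies across it, and -0.67 to -0.41 with 1 library left out.

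The median of 2R over 2L was 1.07 without a scaling factor, 1.59 at a minimum of 5 CPM, 1.47 at 0.2 CPM and 1.90 over genes that overlap no exon. The median of 4b over 4a was 1.45, 1.96, 0.92 and 1.99 under the same changes, and 1.97 over genes with no same-strand exon cover, a setting chosen after seeing the data. With 1 CPM required in each library, also chosen after seeing the data, the medians were 1.52 for 2R over 2L and 1.17 for 4b over 4a, and the excess over hosts 1.94. That excess was 2.71 at 5 CPM, 0.80 at 0.2 CPM and 2.71 over genes that overlap no exon. Below about 1 CPM the values rest on few counts, and 3 counts are 1.60 CPM in tumor 3 and at most 0.467 CPM in the others. The cause of these shifts was not tested.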

Other observations

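The 1409 other genes of snoRNA or scaRNA biotype held 52084 counts, and 232 of them had a count. A single gene, Gm22009, held 30529 of these counts, which is more than any of the named snoRNA genes. Gm22009 was named after its values were seen. It had 4593 counts in tumor 1, 2452 in 2R, 2238 in 2L, 258 in 3, 8313 in 4b, 5622 in 4a, 4746 in 5 and 2307 in 6. Summed CPM of these 1409 genes was lowest in 6 at 176.2 and 2L at 183.0, followed by 4a at 357.3, and highest in 4b at 967.7. Tumor 3, highest for the named snoRNA genes after TMM scaling, stood at 775.5 CPM here, below 4b and 5.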
